A study of Homo sapiens with 27 samples.

Results

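The nuclear basket is a set of filaments on the nucleoplasmic face of the nuclear pore complex, the channel through which mRNAs leave the nucleus and proteins enter it. TPR is a long coiled-coil protein that forms the filaments, NUP153 anchors them to the nuclear ring of the pore, NUP50 is a mobile partner of NUP153 that takes part in the release of imported cargo, and ZC3HC1 links TPR molecules to the pore. The basket is known as a docking site for the mRNA export machinery, and the study asked how RNAs are distributed between nucleus and cytoplasm once TPR is depleted.

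The 4 genes chosen were TPR, NUP153, NUP50 and ZC3HC1, taken by name as the proteins of the basket and not by their values. All 4 were among the 34464 genes of the deposited table and all 4 passed the filter that left 14611 genes for analysis, a mean above 1 FPKM over the libraries.

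The data were RNA-seq of U2OS cells, a human osteosarcoma line, that carried a lentiviral shRNA for 5 days. Cells received a scrambled control shRNA, shRNA TPR A or shRNA TPR D, both directed against TPR, and all were selected with puromycin. From each culture 10% of the cells were kept as the total sample, and the rest were separated with detergent into a nuclear fraction and a cytoplasmic/ER fraction, which holds the cytosol together with the endoplasmic reticulum. With 3 replicates of 3 shRNAs in 3 fractions there were 27 libraries from 9 cultures in 9 groups. The cells were selected populations with no clone named, so a group mean averages over cells with more and with less TPR, and in such bulk samples fewer transcripts per cell and fewer cells that carry them cannot be told apart. The labels do not say whether the replicates came from separate infections, so p-values measure the spread between these samples.

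Markers fitting a mesenchymal line such as U2OS were present, with VIM at 854 to 2662 FPKM and SPARC at 269 to 949 FPKM in every library, while CD3E, ALB and SOX10 reached at most 0.0481 FPKM. The whole marker list was less uniform. COL1A1 lay between 20.6 and 87.5, RUNX2 between 6.25 and 25.1, FN1 between 4.56 and 243 and COL1A2 at or below 0.744 FPKM, and of the markers of other lineages EPCAM reached 6.87, CDH1 1.67 and PTPRC 1.22 FPKM. Of the 27 libraries, 25 were closest to the other libraries of their own fraction. The exceptions were the library labelled control nuclear replicate 2, whose mitochondrially encoded transcripts made up 21.8% of all FPKM and which was closest to the total libraries, and the library labelled control total replicate 2, at 0.738% and closest to the nuclear libraries. The other nuclear libraries held 0.774 to 2.42% of mitochondrially encoded transcripts, the cytoplasmic/ER libraries 26.5 to 37.9% and the other total libraries 15.8 to 24.7%. The main results for TPR and the ratios between fractions, which rest on these 2 libraries, are given below with and without the control replicate 2 culture. Outside these 2 libraries the nuclear marker RNA MALAT1 stood at 16.3 to 40.1 FPKM in nuclear, 2.27 to 16.1 in cytoplasmic/ER and 71.6 to 207 in total libraries. NEAT1, the other nuclear marker, stood at 21.7 to 67.1, 4.11 to 17.9 and 56.8 to 150 FPKM. Both thus reached their highest values in total and not in nuclear libraries, and the cause was not tested. The steps between low FPKM values put 31.7 to 87.3 reads behind 1 FPKM on a transcript of 1 kb, from which each library held an estimated 1012 to 2096 reads on ZC3HC1, 1368 to 7354 on NUP153 and 5291 to 29933 on NUP50, while TPR ranged from 44 to 14685 reads.

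The 4 genes differ in size and lie on different chromosomes. In the GRCh37 annotation (GENCODE 44, lifted to that build) TPR (ENSG00000047410.9) occupies chr1:186280784-186344825 on the minus strand, and its reference transcript has 51 exons and 9636 nt. NUP153 (ENSG00000124789.7) lies at chr6:17615266-17707156 on the minus strand, with 22 exons and 6026 nt. NUP50 (ENSG00000093000.14) lies at chr22:45559806-45583898 on the plus strand, with 8 exons and 5151 nt. ZC3HC1 (ENSG00000091732.11) lies at chr7:129658127-129691291 on the minus strand, with 10 exons and 1889 nt. FPKM values, fragments scaled to transcript length and to the size of the library, can be set side by side between these genes.

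The promoters of 3 of the 4 genes share a short run of letters. The stretches below (RefSeq, GRCh38.p14, 5′ to 3′ on the strand of the gene) are shown as a description of the gene starts. A link between these letters and the levels was not tested. The capitals mark TTTCCCAG in the first 3 and GCATGCGC in NUP50. The stretches lie at chr1:186375349-186375408, chr6:17707005-17707064, chr7:130051433-130051492 and chr22:45163845-45163904, in the order printed.
TPR: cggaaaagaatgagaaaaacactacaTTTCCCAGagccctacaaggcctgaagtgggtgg
NUP153: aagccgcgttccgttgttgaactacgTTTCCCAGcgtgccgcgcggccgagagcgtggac
ZC3HC1: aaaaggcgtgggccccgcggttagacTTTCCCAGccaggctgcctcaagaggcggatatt
NUP50: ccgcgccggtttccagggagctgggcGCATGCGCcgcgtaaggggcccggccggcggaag

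Searched on both strands in windows from 250 bases before to 50 bases after each start, TTTCCCAG was found in 3.35% of the 35116 RefSeq windows. It began 129 bases upstream of the TPR start, 113 bases upstream of the NUP153 start and 81 and 92 bases upstream of the 2 ZC3HC1 starts listed, whose windows overlap. Neither of the 2 NUP50 windows held it. GCATGCGC, present in 3.05% of windows, was found in NUP50 alone among the 4 genes, where it overlaps its own match on the other strand. Of the other letters searched, CCGGAAG (10.3% of windows) was found in NUP50, CCAAT (34.6%) in TPR at 2 places on the other strand, and TGACGT (7.98%) in none of the 4. The letters were picked after these windows had been read, and a match is a description of the window only.

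TPR mRNA was at a higher level in the nuclear than in the cytoplasmic/ER fraction of control cells, where a level is relative to the other transcripts of its library and not an amount per cell. In the control total libraries TPR stood at 28.2, 25.7 and 25.3 FPKM (26.4 ± 1.57, SD, n = 3). In the control nuclear libraries it stood at 28.1, 31.9 and 29.8 FPKM (29.9 ± 1.91, SD, n = 3), and in the control cytoplasmic/ER libraries at 2.97, 2.26 and 3.66 FPKM (2.96 ± 0.701, SD, n = 3). The 3 nuclear values were all above the 3 cytoplasmic/ER values by a wide gap, whereas the nuclear and total values overlapped.

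TPR was lower with each TPR shRNA in every fraction, and no value of a TPR shRNA culture overlapped the control values of its fraction. With shRNA TPR A the total libraries held 4.36, 3.44 and 4.70 FPKM (4.17 ± 0.654, SD, n = 3), which was 15.8% of the control mean. With shRNA TPR D they held 3.23, 4.74 and 6.01 FPKM (4.66 ± 1.39, SD, n = 3), or 17.6% of the control mean. The highest of these 6 values was below every control total library.

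In the nuclear fraction TPR fell to 2.40, 1.64 and 2.35 FPKM with shRNA TPR A (2.13 ± 0.423, SD, n = 3) and to 3.15, 1.71 and 2.65 FPKM with shRNA TPR D (2.50 ± 0.732, SD, n = 3), which were 7.12% and 8.35% of the control mean. In the cytoplasmic/ER fraction it fell to 0.445, 0.132 and 0.689 FPKM with shRNA TPR A (0.422 ± 0.279, SD, n = 3) and to 0.538, 0.185 and 0.518 FPKM with shRNA TPR D (0.414 ± 0.198, SD, n = 3), or 14.3% and 14.0% of the control mean. The nuclear mRNA that remained in depleted cells was thus at about the level that control cells had in the cytoplasmic/ER fraction, and the ranges of these groups overlapped. The 6 depleted cytoplasmic/ER libraries rested on an estimated 44 to 274 TPR reads each, and at 44 reads the counting error alone is 15.1% of the value. Both shRNAs gave their lowest cytoplasmic/ER value in replicate 2. Without the control replicate 2 culture the shares of the control mean were 15.6% and 17.4% in total, 7.36% and 8.64% in nuclear and 12.7% and 12.5% in cytoplasmic/ER RNA for shRNAs TPR A and TPR D.

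**Figure D1:**
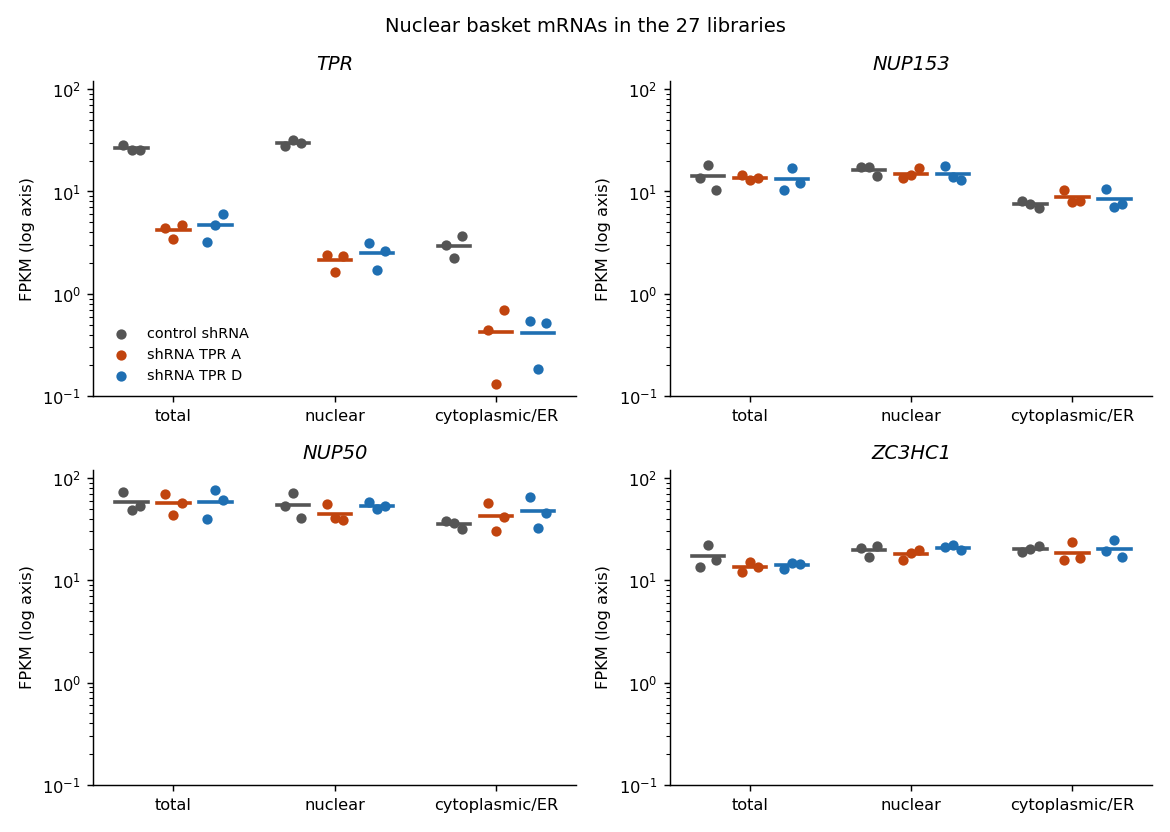
FPKM of each gene on a log axis in the total, nuclear and cytoplasmic/ER libraries, with 1 point per library and a bar at the mean of 3. TPR with either TPR shRNA lies below the control libraries in each fraction, whereas for NUP153, NUP50 and ZC3HC1 the control points and those of the TPR shRNAs overlap within each fraction.

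In the model fitted across all genes (limma on log2 of rescaled FPKM plus 0.1, with Benjamini-Hochberg adjustment), TPR fell by 2.59 on the log2 scale in total RNA with shRNA TPR A (SE 0.363, adjusted p = 0.00120), and its log2 change was -2.44 with shRNA TPR D (adjusted p = 0.00160). In the nuclear fraction the log2 change was -3.76 with shRNA TPR A (adjusted p = 6.86e-06) and -3.56 with shRNA TPR D (adjusted p = 1.91e-05). In both nuclear comparisons TPR ranked 1 of the 14611 genes by p. For shRNAs TPR A and TPR D it ranked 4 and 7 in total RNA and 4 and 3 in cytoplasmic/ER RNA. In the cytoplasmic/ER fraction it was -2.66 with shRNA TPR A (adjusted p = 0.000770) and -2.61 with shRNA TPR D (adjusted p = 0.00116).

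TPR was the only gene of the 4 to pass the threshold, in all 6 comparisons with control. The share of all analysed genes that passed was 0.821% for shRNA TPR A and 0.753% for shRNA TPR D in total RNA, 0.903% and 0.479% in the nuclear fraction, and 0.623% and 0.575% in the cytoplasmic/ER fraction. With the replicate number as a block, which the total libraries of control and shRNA TPR A allowed as paired, 378 instead of 120 genes passed for shRNA TPR A in total RNA, and TPR stayed the only 1 of the 4. Without the control replicate 2 culture the log2 change of TPR was -2.64 and -2.50 in total RNA and -3.71 and -3.51 in nuclear RNA for shRNAs TPR A and TPR D, with adjusted p of at most 0.0114. The call in the cytoplasmic/ER fraction was lost (adjusted p = 0.132 for either shRNA) when only the 9 libraries of that fraction entered the model.

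A test over cultures, without a model of the spread, was run beside it. With the cultures of both TPR shRNAs as 1 group, 6 against 3, the exact 2-sided permutation p for TPR was 0.0119 in total, nuclear and cytoplasmic/ER RNA, the smallest that 84 splits can give. The mean differences were -2.51, -3.66 and -2.63 on the log2 scale. Among the 16 tests of this kind (4 genes, 3 fractions and the nuclear to cytoplasmic/ER ratio), no level of NUP153, NUP50 or ZC3HC1 had a permutation p below 0.143. For 1 shRNA against control the smallest exact p is 0.1.

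The shRNAs did not differ detectably from each other in their effect on the basket genes. The log2 difference of TPR between shRNA TPR A and shRNA TPR D was -0.14 in total (95% interval -0.89 to 0.61), -0.20 in nuclear (-0.95 to 0.55) and -0.05 in cytoplasmic/ER RNA (-0.80 to 0.70), and the intervals leave room for differences of that size. Over the 3 fractions the intervals of NUP153, NUP50 and ZC3HC1 lay between -0.87 and 0.57. None of the 4 genes passed, against 0.281% of all genes in total, 0.315% in nuclear and 0.637% in cytoplasmic/ER RNA. With the replicate number as a block, as nuclear and cytoplasmic/ER libraries of the 2 shRNAs were paired, 206 instead of 46 genes passed in nuclear and 196 instead of 93 in cytoplasmic/ER RNA, and TPR was not among them.

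NUP153, the anchor of the basket, differed between fractions but not detectably between shRNAs. In total RNA it stood at 13.6, 18.2 and 10.4 FPKM in control cells, at 14.6, 12.9 and 13.6 with shRNA TPR A and at 10.4, 16.8 and 12.2 with shRNA TPR D. In the nuclear fraction the values were 17.3, 17.2 and 14.1 in control cells, 13.6, 14.4 and 16.8 with shRNA TPR A and 17.9, 13.8 and 13.0 with shRNA TPR D. In the cytoplasmic/ER fraction they were 8.15, 7.48 and 6.86 in control cells, 10.3, 7.97 and 8.15 with shRNA TPR A and 10.7, 7.10 and 7.57 with shRNA TPR D. Within each fraction the 3 shRNAs overlapped on this scale. On rescaled log2 values the cytoplasmic/ER libraries of shRNA TPR A (2.967 to 3.371) lay just above those of control (2.747 to 2.962). The exact permutation p was 0.1, the smallest that 20 splits can give. The 3 cytoplasmic/ER groups had the lowest means, and neighbours in the order of means overlapped except shRNA TPR D total and shRNA TPR A cytoplasmic/ER, although the cytoplasmic/ER value of 10.7 with shRNA TPR D was above the lowest total values of 10.4. The log2 change against control lay between -0.12 and 0.25 in the 6 comparisons, the lowest adjusted p was 0.728, and the 95% intervals ran from -0.55 to 0.68.

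NUP50, the mobile partner of NUP153, was the most abundant of the 4 mRNAs in every group. In total RNA it stood at 72.4, 48.4 and 52.9 FPKM in control cells, at 69.8, 43.7 and 57.3 with shRNA TPR A and at 39.7, 76.2 and 60.2 with shRNA TPR D. In the nuclear fraction the values were 52.9, 71.0 and 40.1 in control cells, 55.3, 40.3 and 38.5 with shRNA TPR A and 58.1, 49.1 and 52.9 with shRNA TPR D. The cytoplasmic/ER values were 38.0, 36.5 and 31.3 in control cells, 56.4, 30.3 and 41.5 with shRNA TPR A and 64.8, 32.4 and 45.7 with shRNA TPR D. Every group overlapped the next in the order of means, from 58.7 in total RNA with shRNA TPR D to 35.3 in the control cytoplasmic/ER fraction. The log2 change against control lay between -0.27 and 0.40, the lowest adjusted p was 0.755, and the 95% intervals reached from -0.87 to 1.00, so that NUP50 was the least precisely measured of the 3.

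ZC3HC1, the protein that links TPR to the pore, had overlapping values for the 3 shRNAs within each fraction. In total RNA it stood at 13.4, 22 and 15.9 FPKM in control cells, at 11.9, 15.2 and 13.5 with shRNA TPR A and at 12.8, 14.9 and 14.4 with shRNA TPR D. The nuclear values were 20.8, 16.8 and 21.6 in control cells, 15.8, 18.6 and 19.6 with shRNA TPR A and 21.0, 21.9 and 19.6 with shRNA TPR D. In the cytoplasmic/ER fraction they were 18.8, 20.1 and 21.5 in control cells, 15.9, 23.4 and 16.3 with shRNA TPR A and 19.1, 24.6 and 16.9 with shRNA TPR D. Group means ranged from 13.5 to 20.8 FPKM and each group overlapped the next in the order of means, but with either TPR shRNA the 3 total values lay below all nuclear and cytoplasmic/ER values. The log2 change against control lay between -0.25 and 0.09, the lowest adjusted p was 0.605, and the 95% intervals ran from -0.64 to 0.48.

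**Figure D2:**
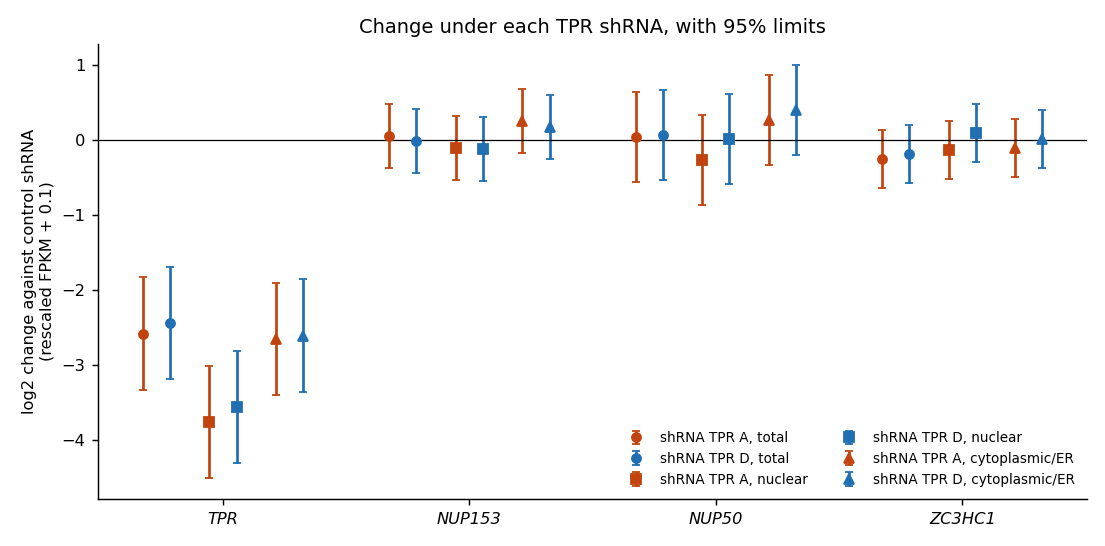
Log2 change of each gene against the control shRNA in the model of all 27 libraries, with 95% intervals, for each TPR shRNA (colour) and fraction (symbol). The TPR intervals lie between -4.51 and -1.69, and those of NUP153, NUP50 and ZC3HC1 include 0 in all 6 comparisons.

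The composition of the basket transcripts changed with the loss of TPR. In total RNA, TPR made up 22.9 ± 1.14% (SD, n = 3) of the summed FPKM of the 4 genes in control cells, 4.73 ± 0.495% with shRNA TPR A and 5.19 ± 1.16% with shRNA TPR D. Without control replicate 2 the control share was 23.2% in total, 25.9% in nuclear and 5.08% in cytoplasmic/ER RNA. In the nuclear fraction the share was 25.0% in all control cells, 2.66% with shRNA TPR A and 2.71% with shRNA TPR D. In the cytoplasmic/ER fraction TPR was a small part already in control cells, at 4.52%, and fell to 0.595% and 0.529%. NUP50 was the largest part throughout, from 44.7% in the control nuclear fraction to 64.2% in total RNA with shRNA TPR D. Its FPKM in total RNA was 98.4% and 101% of the control mean with shRNAs TPR A and TPR D.

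**Figure D3:**
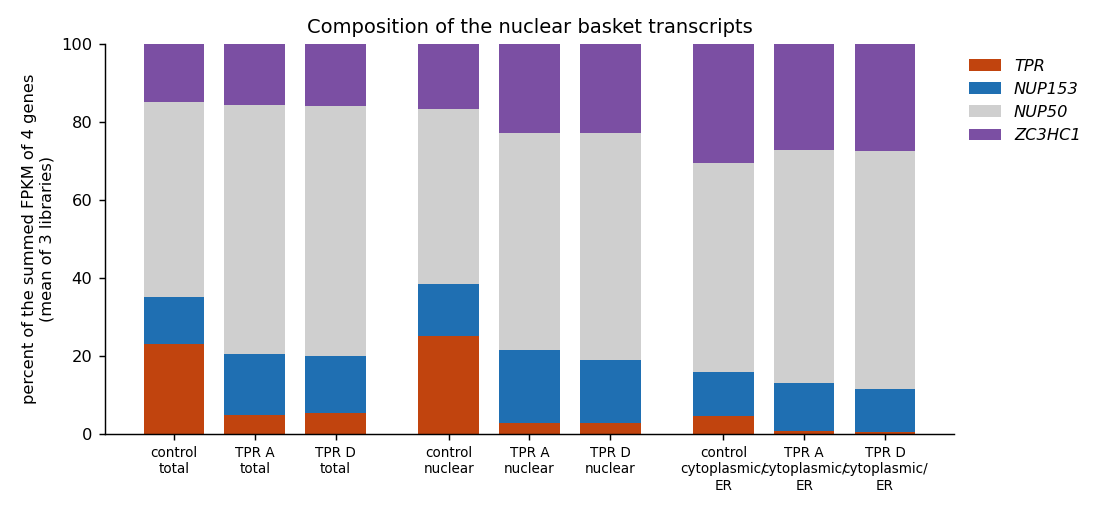
Stacked bars of the mean share (percent) of each gene in the summed FPKM of TPR, NUP153, NUP50 and ZC3HC1, for each shRNA and fraction (mean of 3 libraries). The TPR share falls from 22.9% to 4.73% and 5.19% in total RNA, and the 4 shares of a bar sum to 100.

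The 4 mRNAs differed in where they lay in control cells. The log2 ratio of nuclear to cytoplasmic/ER level was 3.35 for TPR (SE 0.363, adjusted p = 1.91e-06), higher than for 99.7% of the 14611 genes. It was 1.13 for NUP153 (SE 0.206, adjusted p = 0.000232), higher than for 87.7% of genes. For NUP50 it was 0.63 (SE 0.290) and missed the threshold (adjusted p = 0.0867), and for ZC3HC1 it was 0.00 (SE 0.187, adjusted p = 0.989), close to the median of all genes of -0.01. In this comparison 39.4% of all genes passed, 2945 higher and 2805 lower in the nuclear fraction. Both calls among the 4 genes were higher, which in so short a list says little, whereas the place of TPR in the distribution is at its upper end. Without the control replicate 2 culture the ratio of TPR was 3.13 (adjusted p = 0.000110), that of NUP153 was 1.08 (adjusted p = 0.00291), that of NUP50 was 0.45 (adjusted p = 0.346) and that of ZC3HC1 was 0.11 (adjusted p = 0.727).

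**Figure D4:**
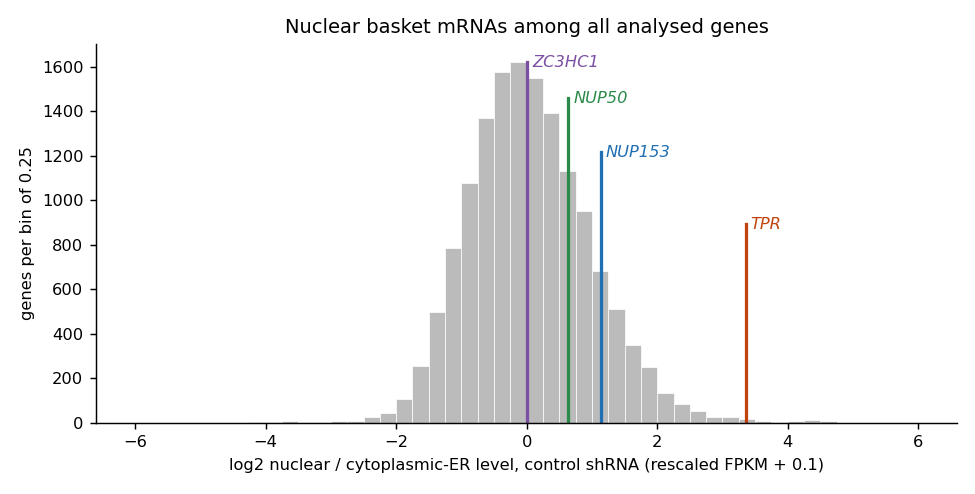
Histogram of the log2 nuclear to cytoplasmic/ER ratio of the 14611 analysed genes in control cells (bins of 0.25), with a line at each basket gene whose height carries no value. The order is ZC3HC1, NUP50, NUP153 and TPR, with TPR beyond 99.7% of genes.

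The mean nuclear to cytoplasmic/ER ratio of TPR was lower in depleted cells than in control cells, but whether the difference exceeded the spread depended on how low cytoplasmic/ER values were treated. On the scale with 0.1 FPKM added, the log2 ratio was 3.23, 3.81 and 3.02 in the control cultures, 2.20, 2.90 and 1.64 with shRNA TPR A and 2.35, 2.66 and 2.19 with shRNA TPR D. The highest depleted culture was below the lowest control culture, the mean difference was -1.03, and the exact permutation test gave p = 0.0119. As plain FPKM ratios, with nothing added, control cultures stood at 9.46, 14.1 and 8.15, those with shRNA TPR A at 5.38, 12.4 and 3.41 and those with shRNA TPR D at 5.85, 9.23 and 5.11, so the groups overlapped. With 0.01 in place of 0.1 added, the difference was -0.77 and the exact permutation p was 0.0952, and leaving out control replicate 2 gave -0.80 (exact permutation p = 0.107).

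In the limma model no gene of the 14611 passed for a change of a ratio between fractions, so percent called was 0% for nuclear to cytoplasmic/ER, nuclear to total and cytoplasmic/ER to total, with either shRNA and with both. At an unadjusted p under 0.05, 251 of the 14611 genes passed for the nuclear to cytoplasmic/ER ratio with both shRNAs, 409 for nuclear to total and 300 for cytoplasmic/ER to total. Each was a smaller share than 0.05, which this threshold passes on average when nothing changes. The model held no culture term, although nuclear and cytoplasmic/ER libraries of a culture deviated together, so a count of 0 does not show that no ratio changed. With the culture as a block, 0 genes passed for the nuclear to cytoplasmic/ER ratio with both shRNAs (TPR adjusted p = 0.918). The TPR change of the nuclear to cytoplasmic/ER ratio was -1.11 with shRNA TPR A, -0.95 with shRNA TPR D and -1.03 with both (adjusted p = 0.999). When 1 FPKM was added before the logarithm, the change was -1.78 with both shRNAs and passed (adjusted p = 0.00575), as did that of shRNA TPR A (-1.86, adjusted p = 0.0277).

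In depleted cells TPR stood higher in total RNA than in either fraction, which was not particular to TPR. TPR in the total library was above both fractions of the same culture in 6 of 6 depleted cultures and in 1 of 3 control cultures, or 1 of 2 without control replicate 2. For NUP50 this held in 5 of 6 depleted and 2 of 3 control cultures. For NUP153 it held in 2 of 6 and 1 of 3, and for ZC3HC1 in 0 of 6 and 1 of 3. MALAT1 also stood higher in the total than in the nuclear library of every depleted culture and of control replicates 1 and 3. The nuclear to total FPKM ratio was 0.995, 1.24 and 1.18 in control cultures, 0.55, 0.478 and 0.50 with shRNA TPR A and 0.974, 0.360 and 0.441 with shRNA TPR D. Over all genes, deviations from the group mean correlated between same-numbered nuclear and total libraries at r -0.43 to 0.18 in control and 0.095 to 0.41 in TPR D cells. The control value of 1.24 is the ratio of the 2 libraries that went against their labels, so its direction is not secure. With these 2 labels exchanged its log2 ratio of 0.38 would change sign and lie below the -0.13 of shRNA TPR D replicate 1. The 6 depleted values were below the control values as labelled, and also below those of replicates 1 and 3 alone, although shRNA TPR D replicate 1 was close to them. The change of this log2 ratio was -1.18 with shRNA TPR A, -1.12 with shRNA TPR D and -1.15 with both (adjusted p = 0.804), and without control replicate 2 it was -1.04 with both (adjusted p above 0.999). The cytoplasmic/ER to total ratio changed by -0.07, -0.17 and -0.12 and its 95% interval with both shRNAs ran from -1.04 to 0.80.

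The nuclear to cytoplasmic/ER ratio of NUP153 was lower as well in the depleted cultures. It was 1.11, 1.24 and 1.06 on the log2 scale in control cultures and between 0.41 and 1.04 in the 6 depleted cultures, so the groups did not overlap on this scale. As plain FPKM ratios they did, since shRNA TPR A replicate 3 stood at 2.064 and control replicate 3 at 2.054. The difference was -0.33 (exact permutation p = 0.0476), and the p was 0.0595 on FPKM as deposited and 0.143 without the control replicate 2 culture. NUP50 ranged from 0.39 to 1.00 in control cultures and from -0.15 to 0.61 in depleted cultures, a difference of -0.46 (exact permutation p = 0.0833), which was -0.28 without control replicate 2 (exact permutation p = 0.286). ZC3HC1 ranged from -0.21 to 0.18 and from -0.32 to 0.26, a difference of 0.03 (exact permutation p = 0.869) that was -0.08 without control replicate 2. In the limma model these changes of NUP153, NUP50 and ZC3HC1 were among those that did not pass, and over the 3 kinds of ratio their 95% intervals lay between -1.38 and 1.18.

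**Figure D5:**
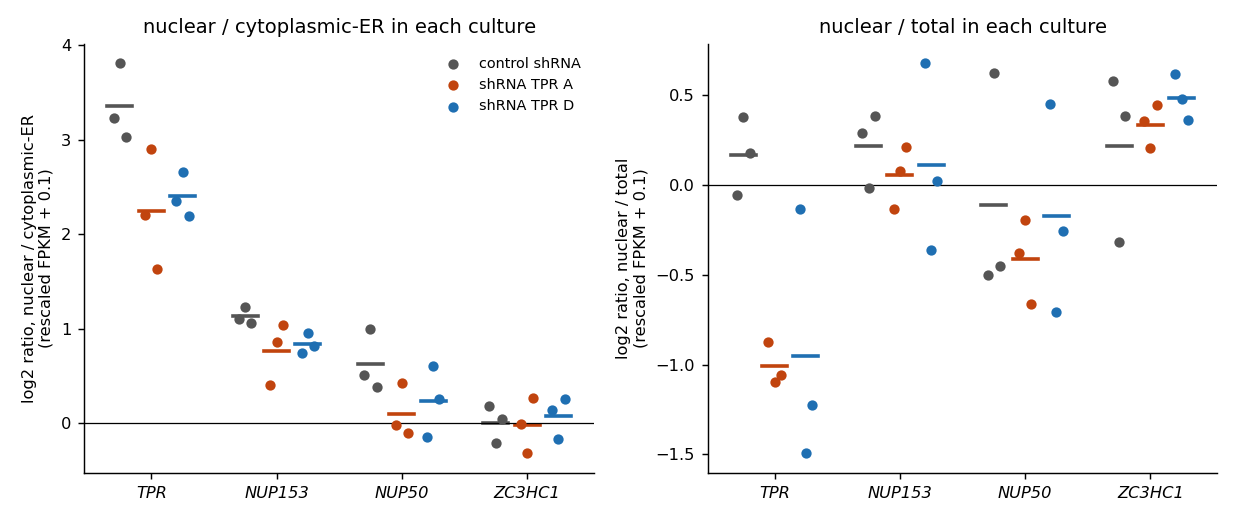
Log2 ratio of nuclear to cytoplasmic/ER level (left) and of nuclear to total level (right) in each of the 9 cultures, on rescaled FPKM plus 0.1, with 1 point per culture and a bar at the mean of 3. The 6 depleted cultures lie below the 3 control cultures as labelled for TPR in both panels, and for NUP153 on the left by a narrow margin that plain FPKM ratios do not show. On the right the separation for TPR depends on the labels of control replicate 2, whose nuclear and total libraries went against them.

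Replicate 1 samples carry sample descriptions of a different form from the rest, so the TPR values were also compared within these sets. Within replicate 1, with no test, the difference of the TPR level was -2.82 in total, -3.27 in nuclear and -2.32 in cytoplasmic/ER RNA. Within replicates 2 and 3 it was -2.36, -3.86 and -2.79, and 15 splits allow no exact permutation p below the 0.0667 found for each. The nuclear to cytoplasmic/ER ratio of TPR was lower by 0.95 within replicate 1 and by 1.07 within replicates 2 and 3 on the log2 scale (exact permutation p = 0.133 for the latter).

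Genes that adjoin the members were examined, since the shRNAs act on TPR transcripts and reads can be shared where genes overlap. ODR4 starts 144 nt from the 5′ end of TPR on the opposite strand and had a mean of 5.87 FPKM. Its log2 change was -0.12 and -0.11 in total, -0.40 and -0.17 in nuclear and -0.02 and -0.08 in cytoplasmic/ER RNA for shRNAs TPR A and TPR D, with no call. PRG4, which encodes the joint lubricant lubricin, overlaps the 3′ end of the TPR gene by 2916 nt on the opposite strand and had a mean of 0.0024 FPKM. The lncRNA NUP153-AS1 overlaps NUP153 by 832 nt on the opposite strand and had a mean of 1.17 FPKM. For shRNAs TPR A and TPR D it changed by -0.33 and -0.84 in total, -0.02 and -0.44 in nuclear and -0.67 and -1.48 in cytoplasmic/ER RNA. None of these was called (SE 0.508, lowest adjusted p = 0.257). The lncRNA NUP50-DT, 113 nt from NUP50, changed by 0.11 to 0.56, with no call. Whether the counting used the strand is not stated in the sources used here.

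Of 29 other nucleoporins listed, 28 were in the table and analysed. NUP160, a scaffold member of the Y complex, was the only 1 called against control, lower with shRNA TPR D in total RNA (log2 change -0.85, SE 0.185, adjusted p = 0.0314) and in nuclear RNA (-0.84, adjusted p = 0.0402). As 1 of 28 genes this was 3.57%, beside 0.753% of all genes in total and 0.479% in nuclear RNA. With shRNA TPR A its changes were -0.42 and -0.49 and did not pass (adjusted p = 0.341 and 0.249), and its direct difference between the shRNAs did not pass either (adjusted p = 0.557 and 0.70). In cytoplasmic/ER RNA the NUP160 change was -0.78 with shRNA TPR D (adjusted p = 0.0538) and -0.43 with shRNA TPR A (adjusted p = 0.340). Leaving out 1 culture removed the NUP160 call in 8 of 9 cases both in total and in nuclear RNA, the exceptions being control replicate 3 in total and control replicate 2 in nuclear RNA. It was lost as well when only the libraries of the fraction were fitted (adjusted p = 0.183 in total and 0.169 in nuclear RNA) and, in total RNA, with a minimum mean of 5 FPKM (adjusted p = 0.0619). The median log2 change of the 28 genes was -0.36 and -0.29 in total RNA for shRNAs TPR A and TPR D, beside -0.01 over all genes in both, and lay between -0.13 and -0.05 in the fractions. These medians were not refitted without control replicate 2, whose total library was closest to the nuclear libraries. Single values in total RNA did depend on it, with ZC3HC1 moving from -0.25 to -0.087 for shRNA TPR A and from -0.18 to -0.019 for shRNA TPR D.

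Proteins that work with the basket were a list of 19 genes (TREX-2 subunits, the export receptor NXF1 with its partner, SUMO proteases, spindle checkpoint proteins, transport factors and lamins), all measured. RCC1, the exchange factor that charges the GTPase Ran in the nucleus, was the only 1 called against control, lower in total RNA with shRNA TPR A (log2 change -1.21, SE 0.220, adjusted p = 0.0111). With shRNA TPR D the change was -0.72 (adjusted p = 0.116), and the difference between the shRNAs did not pass (adjusted p = 0.607). In nuclear and cytoplasmic/ER RNA the RCC1 changes were -0.74 and -0.92 with shRNA TPR A (adjusted p = 0.114 and 0.0509). With shRNA TPR D they were -0.16 and -0.21 (adjusted p = 0.909 and 0.884). The RCC1 call was lost in 4 of the 9 fits that left out 1 culture, those without control replicate 2 (log2 change -0.92) and without any 1 of the shRNA TPR A replicates, and when only the total libraries were fitted (adjusted p = 0.205). As 1 of 19 genes it was 5.26%, beside 0.821% of all genes. The median of the 19 genes lay between -0.26 and -0.09 over the 6 comparisons, and was not refitted without control replicate 2 either. In control cells 10 of the 28 nucleoporins were called higher in the nuclear than in the cytoplasmic/ER fraction and 0 lower. Of the 19 partners 4 were higher and 2 lower. Of all 14611 genes 2945 were higher and 2805 lower, or 39.4% in either direction.

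Across the 27 libraries the genes whose log2 level followed each member most closely were different for each. For TPR they were FZD6 (Pearson r = 0.948), MROH6 (0.921) and TGOLN2 (0.918). For NUP153 they were ENSG00000034063, which has no symbol in the tables used, with r = 0.956, ATAD2 (0.950) and CAND1 (0.943). For NUP50 they were DYRK2 (0.912), TOPBP1 (0.911) and STXBP5 (0.906), and for ZC3HC1 VPS52 (0.907), DDX56 (0.899) and GOT1 (0.895). Among the members, r was 0.65 between NUP153 and NUP50, 0.60 between TPR and NUP153, 0.43 between TPR and NUP50, -0.21 between NUP153 and ZC3HC1, -0.22 between TPR and ZC3HC1 and -0.61 between NUP50 and ZC3HC1. After the mean of each group was removed, the same pairs stood at 0.56, 0.31, 0.59, -0.013, -0.57 and -0.67. These correlations run over libraries of 3 fractions and 3 shRNAs, which share their fraction and culture, and are descriptions.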

How the data were processed

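Poly(A)+ RNA of 9 U2OS cultures in 3 fractions was sequenced as strand-specific libraries. Per the labels and the study's methods, the authors quantified transcripts with Salmon against GENCODE 19 protein-coding and lncRNA transcripts (hg19), summarised them to genes and deposited FPKM values, the only unit used here. Read totals are not in the table, so depth was estimated from the steps between low values of 5936 genes with 1 transcript; 87.8% of 28485 low values lay within 0.1 of a whole read. The estimate covers counting error only.

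Each library was rescaled by its median ratio to the gene-wise geometric mean (factors 0.954 to 1.06), and log2 was taken after 0.1 was added. limma 3.58.1 (R 4.3.3; lmFit, contrasts.fit, eBayes with trend) was fitted to all 27 libraries in 9 groups over 14611 genes with a mean above 1 FPKM outside the mitochondrial genome, with Benjamini-Hochberg adjustment over all of them and a threshold of 0.05. Exact 2-sided permutation tests ran over cultures. Both were tested on simulated data. Same-numbered samples deviated together (r above 0.1 in all 3 pairs) for control and TPR A in total RNA (0.137 to 0.324). So did TPR A and TPR D in nuclear (0.131 to 0.266) and cytoplasmic/ER RNA (0.398 to 0.597), and nuclear and cytoplasmic/ER libraries of a culture (0.223 to 0.469). Nuclear and total libraries of a culture did so with TPR A (0.330 to 0.450), but not in control (-0.432 to 0.181) or TPR D cells (0.0949 to 0.409). Cytoplasmic/ER and total libraries did so in control (0.132 to 0.400) and TPR A cells (0.112 to 0.408), but not in TPR D cells (-0.0323 to 0.215). Blocked fits were alternatives. Python 3.11.15 computed the rest. The members, gene lists and tests were chosen with earlier results of these data known. Genes named were the 4 members, list genes past the threshold against control, the 3 best correlated genes per member, and protein-coding genes and analysed lncRNAs that overlap a member or lie within 1000 nt. Alternatives were other pseudocounts, FPKM as deposited, other minimum levels, leaving out each culture, 1 fraction at a time, and subsets of replicates.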

Additional observations from a re-analysis of the deposited data

How the results depend on the processing

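TPR was called lower than control in 94 of 96 alternative fits over the 6 comparisons, with log2 changes from -3.87 to -1.44. The 2 exceptions were shRNAs TPR A (-2.66) and TPR D (-2.60) in cytoplasmic/ER RNA when only the libraries of that fraction were used. NUP153, NUP50 and ZC3HC1 were called in 0 of 288 such fits, with log2 changes from -0.47 to 0.65. Libraries hold few TPR reads in the depleted cytoplasmic/ER fraction, which limits every ratio with that fraction. Unless a cause is named, the cause of a shift was not tested.

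The number of genes called moved with the processing. With a minimum mean of 5 FPKM it was 48 and 44 (shRNAs TPR A and TPR D) in total, 73 and 38 in nuclear and 49 and 53 in cytoplasmic/ER RNA. Fitted to the libraries of 1 fraction, it was 2 and 4 in total, 20 and 7 in nuclear and 9 and 7 in cytoplasmic/ER RNA, with fewer samples. With no minimum it was 167 and 153 in cytoplasmic/ER RNA and 85 between the shRNAs in nuclear RNA, and 2 genes passed for the nuclear to total and 2 for the cytoplasmic/ER to total ratio with shRNA TPR A, and 1 each with both.

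In fits blocked by replicate number the counts were 378 and 461 in total, 375 and 229 in nuclear and 328 and 261 in cytoplasmic/ER RNA, and between the shRNAs 156, 206 and 196. Besides the pairs given as paired, not all same-numbered libraries of these comparisons reached r 0.1. For control and TPR A, r ran from -0.26 to 0.25 in nuclear RNA, which includes control nuclear replicate 2, and from 0.063 to 0.29 in cytoplasmic/ER RNA. For control and TPR D it ran from -0.010 to 0.20 in total, 0.028 to 0.20 in nuclear and 0.026 to 0.28 in cytoplasmic/ER RNA. For TPR A and TPR D it ran from -0.067 to 0.51 in total RNA. With the culture as a replicate block 1 gene passed for the cytoplasmic/ER to total ratio with both shRNAs. The block changed no call of the 4 genes against control.

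With 1 FPKM added, TPR passed for the nuclear to cytoplasmic/ER ratio with shRNA TPR A (-1.86) and with both (-1.78), as the 1 gene called in each. The TPR cytoplasmic/ER to total ratio turned to 0.92, 0.79 and 0.86 (TPR A, TPR D, both), and its difference between the shRNAs in cytoplasmic/ER RNA to 0.0027. With 0.01 added, the permutation difference of the TPR nuclear to cytoplasmic/ER ratio was -0.77 and missed the threshold; the 0.01 and 1 settings of that test were chosen after seeing the data.

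Uncalled values near 0 changed sign. On FPKM as deposited NUP153 was at -0.0054 and NUP50 at -0.028 with shRNA TPR A in total RNA, NUP50 at -0.0086 with shRNA TPR D in total RNA, ZC3HC1 at -0.0091 with shRNA TPR D in cytoplasmic/ER RNA and at -0.032 for the control nuclear to cytoplasmic/ER ratio. The permutation differences in total RNA were -0.048 for NUP153 and -0.018 for NUP50, and that of the NUP153 nuclear to cytoplasmic/ER ratio was -0.31 and missed the threshold. With no minimum the same 5 model values were -0.0051, -0.027, -0.0082, -0.0091 and -0.033. With a minimum of 5 FPKM NUP153 was at 0.061 with shRNA TPR D in total RNA.

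Within replicate 1 the permutation differences were -2.82 (total) and -3.27 (nuclear) for TPR, 0.42 (cytoplasmic/ER) and -0.53 (nuclear to cytoplasmic/ER ratio) for NUP153, and 0.73 (cytoplasmic/ER) and -0.40 (total) for NUP50. Within replicates 2 and 3, where 15 splits cannot pass the threshold, TPR was at -2.36, -3.86 and -2.79 in total, nuclear and cytoplasmic/ER RNA, the ratios of TPR and NUP153 at -1.07 and -0.23, and nuclear ZC3HC1 at 0.047. Without control replicate 2 these ratios were -0.80 and -0.28 and missed the threshold, and the signs of NUP50 in nuclear (0.087) and total RNA (-0.10) and of the ZC3HC1 ratio (-0.081) turned.

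Leaving out 1 culture at a time, the genes called ranged from 4 to 168 and from 31 to 113 in total, 14 to 170 and 17 to 66 in nuclear, and 25 to 87 and 21 to 90 in cytoplasmic/ER RNA (TPR A, TPR D). The lowest counts came without TPR A replicate 2 and without TPR D replicate 3. Between the shRNAs they ranged from 4 to 77, 8 to 99 and 7 to 130, for the control ratio from 3689 to 5842, and for ratio changes from 0 to 2 (nuclear to cytoplasmic/ER, both) or 0 to 1 (all others). In total RNA NUP153 ranged from -0.12 to 0.23 and -0.20 to 0.16 and NUP50 from -0.13 to 0.21 and -0.14 to 0.32 (TPR A, TPR D). With shRNA TPR D nuclear NUP50 ranged from -0.19 to 0.22 and nuclear ZC3HC1 from -0.014 to 0.16, and in cytoplasmic/ER RNA NUP153 from -0.0097 to 0.28 and ZC3HC1 from -0.14 to 0.14. The ZC3HC1 nuclear to cytoplasmic/ER ratio ranged from -0.082 to 0.11 in control cells and its change from -0.080 to 0.11. For TPR the difference between the shRNAs ranged from -0.37 to 0.064 in total and -0.42 to 0.45 in cytoplasmic/ER RNA, and the change of the cytoplasmic/ER to total ratio from -0.35 to 0.30, -0.60 to 0.23 and -0.34 to 0.080 (TPR A, TPR D, both).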
